A study of Mus musculus with 6 samples.

Results

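The 7 genes described here encode the cyclin-dependent kinase (CDK) inhibitors of the mouse. They are *Cdkn1a*, *Cdkn1b* and *Cdkn1c* of the CIP/KIP family and *Cdkn2a*, *Cdkn2b*, *Cdkn2c* and *Cdkn2d* of the INK4 family. They were chosen by name, as every probe on the array that is not a control spot and whose gene name is that of a member, which gave 13 probes for the 7 genes among 36693 gene names. Of these probes, 7 were tested and stand for 5 genes, and *Cdkn2a* and *Cdkn2b* had no tested probe.

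RNA was taken from LSK cells (lineage-negative, Sca-1-positive, c-Kit-positive), the bone marrow (BM) fraction that holds haematopoietic stem cells (HSCs) and early progenitors, of C57BL/6 mice between postnatal day 6 and postnatal day 8. The 3 control samples were *Atg5*w/w;*Vav*iCre+ and the 3 other samples were *Atg5*f/f;*Vav*iCre+, written *Atg5*f/f;*Vav* below, so both groups carried the iCre recombinase. Vav regulatory elements drive the recombinase in blood-forming cells, and *Atg5*, which encodes a protein needed to build autophagosomes, is deleted there when its alleles are floxed. Neither the labels nor the methods say whether a sample was 1 mouse or a pool, so n counts arrays, and p-values measure the spread between these samples, which may be partly technical. Each sample was hybridised to its own 1-colour array, where each spot carries a probe of 60 bases and its brightness reports how much matching RNA was present.

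CDK inhibitors restrain the kinases that carry a cell from G1 into S phase. INK4 proteins bind Cdk4 and Cdk6 and keep D-type cyclins off them, whereas CIP/KIP proteins bind complexes of cyclin and kinase and block above all Cdk2 with cyclin E or cyclin A. In HSCs, p57 (*Cdkn1c*) and p27 (*Cdkn1b*) are known for holding cells in quiescence, p21 (*Cdkn1a*) is a target of p53, p18 (*Cdkn2c*) is known for limiting stem cell self-renewal, and p16 and p19Arf (both from *Cdkn2a*) are known for their rise with ageing and oncogenic stress.

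The tested probes of the CIP/KIP genes match the following sequences, of which the first 30 of 60 bases are shown, 5′ to 3′, in lower case. The pair for *Cdkn1b* shows that the gene was read at 2 separate places.
*Cdkn1a*, A_51_P363947, mm9 chr17:29237377-29237436, plus strand: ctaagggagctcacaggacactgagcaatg
*Cdkn1b*, A_55_P2026562, mm9 chr6:134875424-134875483, plus strand: gtgcttaaaaggttgcatactgagccaagt
*Cdkn1b*, A_52_P673863, mm9 chr6:134873606-134873665, plus strand: attagccaagcaaccataagactctagtca
*Cdkn1c*, A_55_P2733752, mm9 chr7:150644297-150644356, minus strand: attgctcttaaacttggtgaccagacagtc

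Upstream sequence was taken from RefSeq on GRCm38.p6, a later build than that of the probes, and 6 of the 7 members were matched there, with 9 transcription starts in all. Shown are the 250 bases before both starts of *Cdkn1a*, the member that rose, and before that of *Cdkn1b*. Capitals mark the core of a p53 response element (CATGNNNNNNCATG) before the first start of *Cdkn1a* and GC boxes (GGGCGG) in the others.
*Cdkn1a*, first start, GRCm38.p6 chr17:29090729-29090978, plus strand: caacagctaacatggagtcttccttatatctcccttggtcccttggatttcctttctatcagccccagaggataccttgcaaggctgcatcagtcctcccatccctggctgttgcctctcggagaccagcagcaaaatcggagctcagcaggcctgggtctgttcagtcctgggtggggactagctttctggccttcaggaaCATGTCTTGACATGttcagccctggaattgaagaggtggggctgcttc
*Cdkn1a*, second start, GRCm38.p6 chr17:29093519-29093768, plus strand: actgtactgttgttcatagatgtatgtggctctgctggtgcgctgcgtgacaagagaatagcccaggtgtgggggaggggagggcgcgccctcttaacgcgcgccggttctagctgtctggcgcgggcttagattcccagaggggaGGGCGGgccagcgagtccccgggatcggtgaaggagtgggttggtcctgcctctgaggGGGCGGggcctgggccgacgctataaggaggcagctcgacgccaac
*Cdkn1b*, GRCm38.p6 chr6:134920151-134920400, plus strand: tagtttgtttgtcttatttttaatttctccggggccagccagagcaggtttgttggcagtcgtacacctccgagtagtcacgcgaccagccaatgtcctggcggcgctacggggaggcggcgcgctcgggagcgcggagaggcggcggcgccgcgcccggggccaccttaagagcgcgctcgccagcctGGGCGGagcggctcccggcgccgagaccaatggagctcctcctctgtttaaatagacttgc

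Both strands were searched in the 250 bases before each start. The p53 core, which reads the same on both strands, stood before 1 of the 9 starts of members, against 0.49% of all 32851 windows of that length. GC boxes stood before 5 of the 9, against 32.7% of all windows. An E2F motif (TTTCCCGC) stood before 1 of 9, at *Cdkn2a*, against 0.895%, a CHR motif (TTTGAA), the element bound by the DREAM complex, before 1 of 9, at *Cdkn2b*, against 16%, and a FoxO motif (TGTTTAC) before 0 of 9, against 3.17%. No match overlapped that of another motif. A match is a description of the sequence.

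The targeted gene was read first. Values are log2 signals minus the 75th percentile of their array, called relative log2 signals below. *Atg5* was at 1.10, 0.93 and 1.06 on the control arrays and at 1.46, 1.51 and 1.74 in the *Atg5*f/f;*Vav* group. It was higher in the second group by 0.54 (SE 0.12, adjusted p = 0.0209). A deletion sets a direction for this probe only if the probe reads the deleted part. The adjusted p was 0.0713 without control replicate 1 and 0.0821 without control replicate 2, and whether this probe, which starts at base 2251 of the transcript, lies in the deleted part was not determined. The directions below therefore rest on the labels. The paper reports a sufficiently high efficiency of *Atg5* deletion with this recombinase and impaired autophagy in LSK cells of such mice, by measurements not analysed here.

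Control arrays had 58.1%, 57.6% and 58.1% of probes well above background, and *Atg5*f/f;*Vav* arrays had 54.8%, 53.9% and 51.6%. The 6 arrays shared 1 slide and 1 scan, and each group filled a row of its own on the slide, so row and genotype cannot be told apart. Between groups, 34.1% of the 20693 genes tested were called by limma at an adjusted p under 0.05, 18.7% higher and 15.3% lower in the samples labelled *Atg5*f/f;*Vav*, and in 56% of genes the values of the groups did not overlap. The median log2 fold change of all genes was -0.03. With the 75th percentile taken over probes detected on all arrays, that median was -0.24, and 25.4% of the probes called were higher, in place of 50.3%.

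Of the 5 members tested, 2 were called, *Cdkn1a* higher and *Cdkn1c* lower, and in 3 the groups did not overlap, 1 higher and 2 lower. Among all genes, 34.1% were called, and 56% had no overlap (29.7% higher, 26.3% lower). By probe, 3 of 7 were called, 1 higher and 2 lower, beside 34.4% of all probes (17.3% higher, 17.1% lower), of which 55.4% had no overlap. *Cdkn1b* was called by 1 of its 2 probes, and *Cdkn2c* and *Cdkn2d* were not called. Without control replicate 1, and likewise without control replicate 2, limma called 0 of 5 members, with 2 of 5 at an unadjusted p under 0.05, and without control replicate 3 it called 1 of 5. The paper's methods name a Student's t-test for comparing groups, but no test of single genes for the arrays. Run here on the arrays with the same adjustment, that t-test called 0 of 5, with 2 at an unadjusted p under 0.05. Over the whole array, 219 and 148 probes were called without control replicate 1 and control replicate 2, and 8118 without control replicate 3, in place of 11024. Many genes had an unadjusted p under 0.05, and such counts here and below are to be read beside that share. Of all 20693 genes, limma put 5088 higher and 4853 lower under that value, and the t-test 5178 and 3592. Without control replicate 1 it was 7170 of 20115 genes by limma, and without control replicate 2 it was 7094 of 20122.

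**Figure D1:**
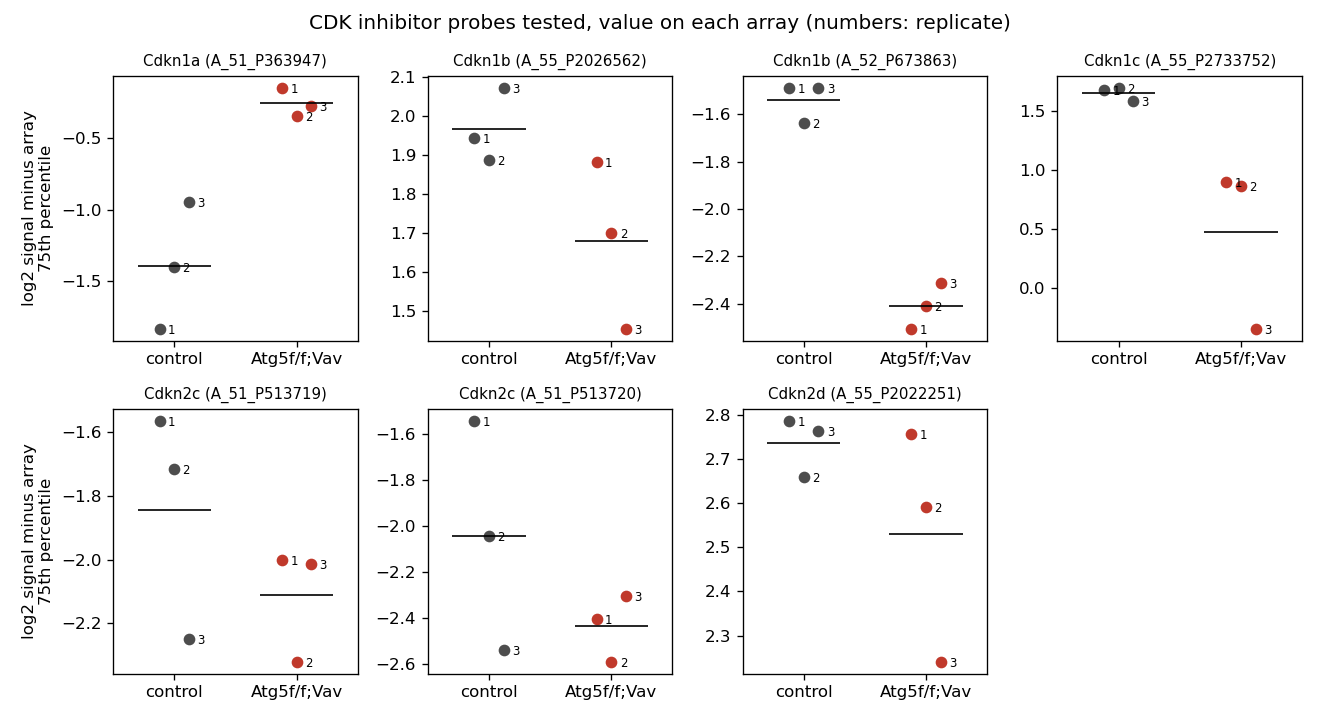
Relative log2 signal (y axis, log2 signal minus the array's 75th percentile) of the 7 tested probes on the 3 control arrays (grey) and the 3 arrays labelled *Atg5*f/f;*Vav* (red), with replicate numbers and group means as lines; y axes differ between panels. *Cdkn1a* lay between -1.84 and -0.95 on the control arrays and between -0.35 and -0.15 on the others, and *Cdkn1c* was lowest on replicate 3 of *Atg5*f/f;*Vav*, at -0.34.

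*Cdkn1a* encodes p21, a CIP/KIP inhibitor that p53 and other stress signals induce. It was at -1.84, -1.40 and -0.95 on the control arrays and at -0.15, -0.35 and -0.27 in the *Atg5*f/f;*Vav* group. All 3 values of the second group were above the highest control value, and the control arrays were the more spread. *Cdkn1a* was higher by 1.14 (SE 0.22, 95% CI 0.61 to 1.67, adjusted p = 0.0168), a fold change of 2.20. The rise was 0.90 with normexp background correction, 0.94 with the percentile over detected probes and 1.22 with quantile normalisation. It was 0.92 without control replicate 1 (adjusted p = 0.0669) and 1.14 without control replicate 2 (adjusted p = 0.0711).

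*Cdkn1a* had 2 further probes that were not tested. A_55_P1976204, which lists another transcript of the gene, passed the background test on 2 of 3 *Atg5*f/f;*Vav* arrays and 0 of 3 control arrays, with relative log2 signals of -6.75, -7.07 and -7.31 in the control group against -4.79, -4.51 and -5.41. Nothing is drawn from these values and no fold is given, because the probe was not measured above background in the control group. A_55_P1986282, at base 55 of a second RefSeq transcript, was not well above background on any array.

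*Cdkn1b* encodes p27, which accumulates in cells that leave the cycle and is removed when they enter S phase. The brighter probe, A_55_P2026562, was at 1.94, 1.89 and 2.07 on the control arrays and at 1.88, 1.70 and 1.46 in the *Atg5*f/f;*Vav* group. The groups did not overlap but lay close, with 1.89 in the control group next to 1.88 in the other. The difference of -0.29 (95% CI -0.62 to 0.04, adjusted p = 0.145) did not pass the threshold. With the percentile taken over detected probes it was at -0.49 (adjusted p = 0.0358). Relative to the median of all genes, which moved down as well, the difference was -0.26 under that scaling and the main one. After quantile normalisation it was at -0.46, or -0.44 relative to that median.

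The second *Cdkn1b* probe, A_52_P673863, was at -1.49, -1.64 and -1.49 on the control arrays and at -2.50, -2.41 and -2.31 in the *Atg5*f/f;*Vav* group. All control values were above all values of the other group, and the spread within each was small beside the gap. It fell by 0.87 (SE 0.11, adjusted p = 0.0112), with adjusted p of 0.0647 without control replicate 1 and 0.0569 without control replicate 2. Within each array, the second probe minus the first was lower in the samples labelled *Atg5*f/f;*Vav* by 0.58 on average, without overlap (exact permutation p = 0.1, two-sided, the smallest that 3 arrays against 3 can give). The mean of both probes was lower by 0.58 (adjusted p = 0.0162). The brighter probe lists the RefSeq transcript of *Cdkn1b*, and the second lists an Ensembl transcript and not that one.

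*Cdkn1c* encodes p57, the CIP/KIP member best known for HSC quiescence, and is expressed from the maternal allele in an imprinted cluster of chromosome 7. It was at 1.68, 1.70 and 1.59 on the control arrays and at 0.90, 0.87 and -0.34 in the *Atg5*f/f;*Vav* group. The control values lay within a narrow band, and replicate 3 of *Atg5*f/f;*Vav* was well below the other two. *Cdkn1c* fell by 1.18 (SE 0.33, 95% CI -1.95 to -0.41, adjusted p = 0.0335), which is 2.26-fold lower. Without replicate 3 of *Atg5*f/f;*Vav* the change was -0.77 (adjusted p = 0.011), so the size but not the call depended on that array. Leaving out control replicate 1, 2 or 3 gave adjusted p of 0.0929, 0.102 and 0.0702 at changes of -1.17, -1.16 and -1.21.

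The INK4 members gave no call. *Cdkn2a* and *Cdkn2b*, each with 2 probes, were not well above background on any array, which says only that these probes gave no measurable signal here. *Cdkn2c*, which encodes p18, was at -1.56, -1.72 and -2.25 on the control arrays and at -2.0, -2.32 and -2.01 in the *Atg5*f/f;*Vav* group. These values overlapped, with a difference of -0.27 (95% CI -0.74 to 0.21, adjusted p = 0.322), and a second probe, which overlaps the first in position, gave -0.39 (adjusted p = 0.244). *Cdkn2d*, which encodes p19Ink4d, was at 2.79, 2.66 and 2.76 against 2.76, 2.59 and 2.24. Its groups overlapped too, with a difference of -0.21 (95% CI -0.57 to 0.16, adjusted p = 0.317). After quantile normalisation the difference was -0.44 for *Cdkn2d* and -0.10 for *Cdkn2c*.

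**Figure D2:**
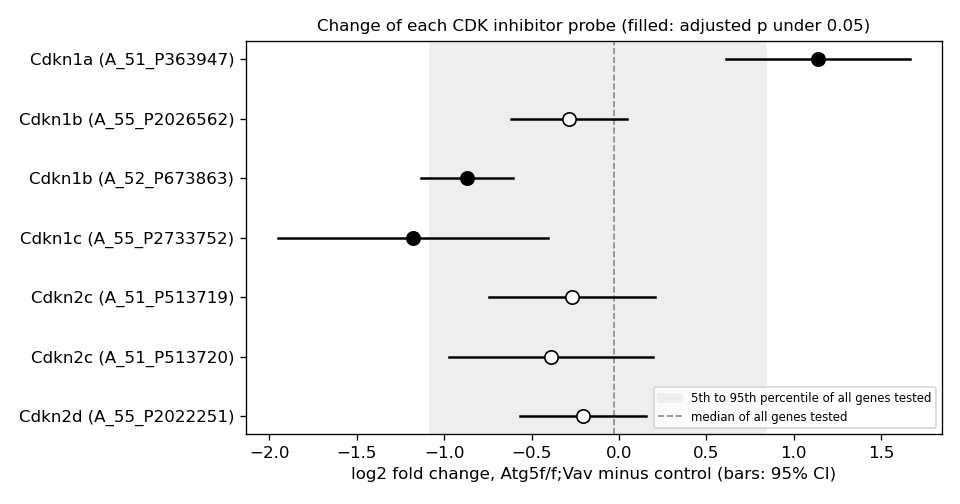
Log2 fold change (x axis, *Atg5*f/f;*Vav* minus control) of the 7 tested probes of CDK inhibitor genes, with 95% confidence intervals as bars and filled points for an adjusted p under 0.05; the grey band runs from the 5th to the 95th percentile of all genes (-1.08 to 0.84) and the dashed line is their median. *Cdkn1a* (1.14) and *Cdkn1c* (-1.18) lay outside the band, on opposite sides.

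Because a change can also be read between members on the same array, the difference of each pair was compared between groups, in 10 pairs of 5 members, each by its brighter probe where it had more than 1 tested. *Cdkn1a* minus *Cdkn1c* stood at -3.52, -3.10 and -2.53 in the control group and at -1.05, -1.22 and 0.07 in the *Atg5*f/f;*Vav* group, so their changes were 2.32 apart without overlap. *Cdkn1a* also parted without overlap from *Cdkn1b* (by 1.43), *Cdkn2c* (by 1.41) and *Cdkn2d* (by 1.35). *Cdkn1c* parted from *Cdkn1b* by 0.89, from *Cdkn2c* by 0.91 and from *Cdkn2d* by 0.97. Each of these 7 pairs had an exact permutation p of 0.1, two-sided, the smallest that the design allows, and 0.143 adjusted over the 10 pairs. All 7 hold *Cdkn1a* or *Cdkn1c*, the members called in opposite directions, so they restate those changes and are not 7 separate readings. How often pairs of other genes part without overlap was not counted. Among *Cdkn1b*, *Cdkn2c* and *Cdkn2d* the 3 pairs overlapped, with differences of changes between -0.08 and -0.02. These readings depended on the probe. With the second *Cdkn1b* probe, *Cdkn1b* minus *Cdkn1c* overlapped between groups, at -3.17, -3.33 and -3.08 against -3.40, -3.28 and -1.97, and their changes were 0.31 apart (exact permutation p = 0.9). That probe minus *Cdkn2d* was at -4.28, -4.30 and -4.25 against -5.26, -5.0 and -4.55, lower by 0.66 without overlap, and minus *Cdkn2c* it was lower by 0.60 without overlap. With the second *Cdkn2c* probe, *Cdkn1c* and *Cdkn2c* overlapped.

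Among the partners of INK4 proteins, all 5 genes of the D-type cyclins and their kinases were tested, 2 were called higher and 0 lower, and the median log2 fold change was 0.32 beside -0.03 for all genes. That median was 0.06 beside -0.02 after quantile normalisation, and 0.11 beside -0.24 with the percentile taken over probes detected on all arrays. *Cdk6*, an early G1 kinase, was at 3.91, 4.13 and 4.51 on the control arrays and at 4.98, 5.02 and 5.43 in the *Atg5*f/f;*Vav* group. All values of the second group were higher, by 0.96 on average (adjusted p = 0.0179). *Cdk4* rose by 0.43 (adjusted p = 0.0287). *Ccnd2* (0.22, adjusted p = 0.115), *Ccnd1* (0.28, adjusted p = 0.291) and *Ccnd3* (0.32, adjusted p = 0.0625) did not pass the test. Other probes of *Ccnd2* and *Ccnd3* went down to -0.01 and -0.21. With control replicate 1 or control replicate 2 left out, limma called 0 of these 5, with 2 at an unadjusted p under 0.05 in each case, and without replicate 1 or 2 of *Atg5*f/f;*Vav* it called 1.

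Among the partners of CIP/KIP proteins, cyclins E, A and B and their kinases, 8 of 16 tested genes were called higher and 0 lower, with a median of 0.49. *Ccne1*, whose cyclin turns on Cdk2 at the start of S phase, was at 1.62, 1.54 and 1.78 on the control arrays and at 2.40, 2.79 and 3.72 in the *Atg5*f/f;*Vav* group. It rose by 1.32 (SE 0.32, adjusted p = 0.0239), the third array of that group being the highest. *Cdk1* (0.94, adjusted p = 0.0179) and *Ccnb1* (0.91, adjusted p = 0.0224), the kinase and a cyclin of mitotic entry, rose as well. At an unadjusted p under 0.05, limma gave 11 higher and 1 lower. The lower one was the entry for *Cdk3*, whose probe is named for the pseudogene *Cdk3-ps* in the scanner files, and the other 15 genes had a median of 0.54. Without control replicate 1 or control replicate 2 it called 0 of 16, with 9 and 8 higher at an unadjusted p under 0.05.

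Ubiquitin ligases and kinases that act on CIP/KIP proteins, which set how long p21, p27 and p57 last, had 10 of 23 tested genes called higher and 0 lower, with a median of 0.45 and 14 higher and 0 lower at an unadjusted p under 0.05. *Cks1b*, the cofactor with which the Skp2 ligase recognises p27, was at 3.77, 3.82 and 4.13 on the control arrays and at 4.64, 4.58 and 4.88 in the *Atg5*f/f;*Vav* group, a rise of 0.79 (adjusted p = 0.0163). Its paralogue *Cks2* rose by 1.03 (adjusted p = 0.0165). *Cops5*, a subunit of the COP9 signalosome that binds p27, rose by 0.70 (adjusted p = 0.0159), whereas another of its probes was at -0.25. On leaving out control replicate 1 or control replicate 2, limma called 0 of 23, with 9 higher at an unadjusted p under 0.05 in each case.

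Downstream of the kinases, 5 of 13 tested pocket protein and E2F genes were called higher and 2 lower, with a median of 0.26. *E2f4*, a repressor E2F of resting cells (0.87, adjusted p = 0.0188), *E2f8*, a repressor E2F of cycling cells (0.82, adjusted p = 0.0221), and the dimerisation partner *Tfdp1* (0.66, adjusted p = 0.0227) were the 3 with the largest rise. *Rbl2*, which encodes the pocket protein p130 of quiescent cells, fell by 0.49 (adjusted p = 0.0439), and *Tfdp2* fell by 0.48 (adjusted p = 0.0233). Of 7 genes of the DREAM and MuvB complexes, which repress cell cycle genes at rest, 1 was called higher and 0 lower, with a median of 0.31 and 4 higher and 0 lower at an unadjusted p under 0.05. That gene was *Mybl2* (1.17, adjusted p = 0.018), whose product replaces the repressive partners on MuvB in cycling cells. Without control replicate 1 or control replicate 2, limma called 0 of these 20 genes, with 9 and 7 at an unadjusted p under 0.05, and without replicate 2 of *Atg5*f/f;*Vav* 3 of the 13 pocket protein and E2F genes were called higher and 1 lower.

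Proliferation markers, genes of DNA replication and mitosis, were called higher in 23 of 24 tested genes and lower in 0, with a median of 0.70. The remaining gene, *Kif11*, named because it was the exception, had an adjusted p of 0.0565 and counted among the 24 higher at an unadjusted p under 0.05. *Plk1*, a mitotic kinase, was at 2.86, 2.53 and 3.13 on the control arrays and at 3.85, 3.73 and 4.44 in the *Atg5*f/f;*Vav* group, a rise of 1.17 (adjusted p = 0.0172). *Aurkb* (1.09, adjusted p = 0.0167) and *Top2a* (0.94, adjusted p = 0.0174) followed. With control replicate 1 or control replicate 2 left out, limma called 0 of 24, with 23 higher at an unadjusted p under 0.05 in each case, and the medians were 0.72 and 0.59. In samples of sorted cells, a change in the share of one kind of cell and a change in RNA per cell cannot be told apart.

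Genes known for HSC quiescence gave 13 of 39 tested genes called lower and 2 higher, with a median of -0.38. It holds none of the CDK inhibitors. *Mecom*, a transcription factor gene of long-term HSCs, was at -0.63, -0.86 and -1.14 on the control arrays and at -2.29, -2.15 and -3.43 in the *Atg5*f/f;*Vav* group, a fall of 1.75 (SE 0.34, adjusted p = 0.0168). *Hlf*, another HSC transcription factor gene, fell by 1.65 (adjusted p = 0.0172), and *Robo4*, a surface receptor gene used to mark HSCs, fell by 1.41 (adjusted p = 0.0442). All 3 were lowest on replicate 3 of *Atg5*f/f;*Vav*, as *Cdkn1c* was. Without that array 12 genes of the list were called lower, and its median was -0.16.

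In the same list *Irgm1*, an interferon-inducible GTPase gene, was at 1.69, 1.72 and 1.64 on the control arrays and at 3.60, 3.69 and 4.44 in the *Atg5*f/f;*Vav* group. It rose by 2.23 (SE 0.23, adjusted p = 0.00692), and *Tgfb1*, a cytokine gene, rose by 0.80 (adjusted p = 0.0166). Among the tested genes of the list, 11 were higher and 28 lower, whether called or not. On leaving out control replicate 1 or control replicate 2, limma called 1 gene of 39 higher and 0 lower, with 13 and 15 lower at an unadjusted p under 0.05, and 7 were called lower without control replicate 3.

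**Figure D3:**
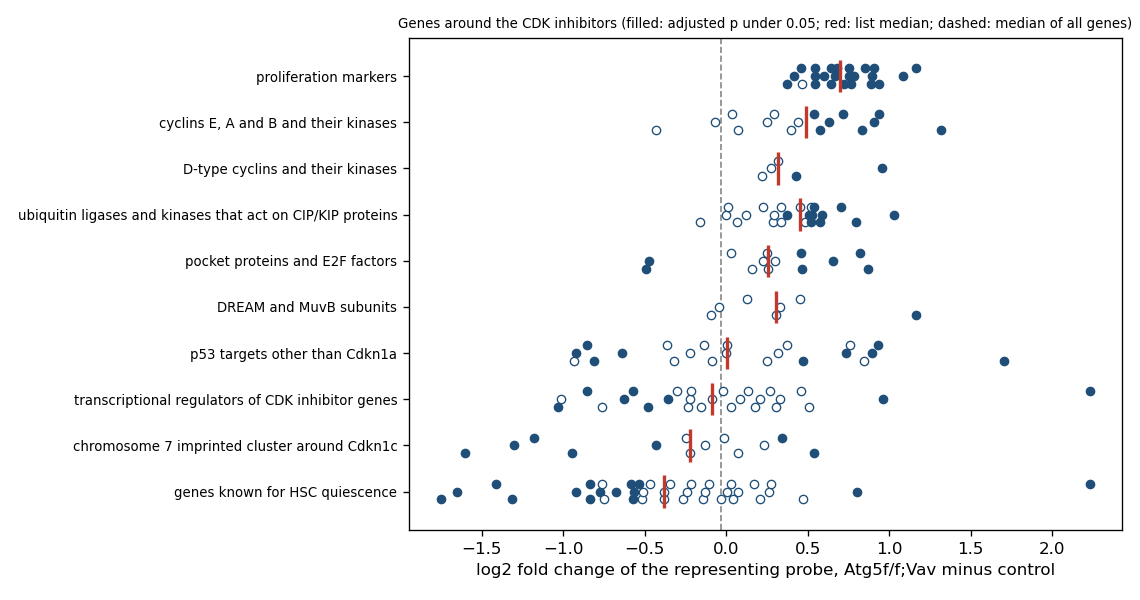
Log2 fold change (x axis, *Atg5*f/f;*Vav* minus control) of the representing probe of each tested gene in 10 lists around the CDK inhibitors; filled points have an adjusted p under 0.05, red lines are list medians and the dashed line is the median of all genes. Proliferation markers lay to the right (median 0.70) and genes known for HSC quiescence spread to the left (median -0.38), with p53 targets on both sides.

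Transcriptional regulators of CDK inhibitor genes gave 2 of 27 tested genes called higher and 6 lower, with a median of -0.09. *Gfi1b*, a repressor gene of HSCs and of the erythroid and megakaryocyte lineages, was at 1.61, 1.09 and 1.66 on the control arrays and at 2.89, 3.76 and 4.40 in the *Atg5*f/f;*Vav* group, a rise of 2.23 (adjusted p = 0.0152). *Myc*, whose product represses *Cdkn1a* and *Cdkn1b*, rose by 0.96 (adjusted p = 0.0123). *Cbx8* (-1.03, adjusted p = 0.029) and *Cbx7* (-0.85, adjusted p = 0.0146), Polycomb genes whose products silence the *Cdkn2a* locus, fell, although another probe of *Cbx7* was at -0.07. *Foxo1*, whose product activates *Cdkn1b*, fell by 0.63 (adjusted p = 0.034). Without control replicate 1 or control replicate 2, limma called 0 of 27, with 8 and 9 at an unadjusted p under 0.05. It called 2 lower without control replicate 3 and 3 lower without replicate 2 of *Atg5*f/f;*Vav*. The median of these regulators lay between -0.16 and -0.02 when any 1 array was left out.

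The p53 targets other than *Cdkn1a* moved both ways, with 5 of 22 tested genes called higher, 4 lower and a median of 0.00. The probe of *Fas*, which was not called, has coordinates on another chromosome than that gene, and without it the same counts stood among 21 genes. *Pmaip1*, which encodes the death protein Noxa, was at -4.07, -4.21 and -2.38 on the control arrays and at -2.02, -2.15 and -1.37 in the *Atg5*f/f;*Vav* group, a rise of 1.70 (adjusted p = 0.0381), with control replicate 3 close to the other group. *Bax*, a pore-forming death protein gene (0.93, adjusted p = 0.0151), and *Aen*, a nuclease gene (0.89, adjusted p = 0.0108), rose, although another probe of *Aen* was at -0.16. *Btg2*, an antiproliferative gene, fell by 0.92 (adjusted p = 0.0171), the stress gene *Trp53inp1* fell by 0.86 (adjusted p = 0.0431), and *Sesn1*, an inhibitor of TORC1 signalling, fell by 0.81 (adjusted p = 0.0318). With control replicate 1 or control replicate 2 left out, limma called 0 of 22, with 12 and 10 at an unadjusted p under 0.05. Without control replicate 3 it called 4 higher and 1 lower, without replicate 2 of *Atg5*f/f;*Vav* 3 higher and 2 lower, and without replicate 3 of *Atg5*f/f;*Vav* 3 higher and 5 lower.

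Around *Cdkn1c*, the imprinted cluster of chromosome 7 had 13 tested genes, *Cdkn1c* included, with 5 called lower, 2 higher and a median of -0.22. *H19*, the maternally expressed long non-coding RNA gene, was at 0.72, 1.21 and 0.90 on the control arrays and at -0.24, -0.21 and -1.53 in the *Atg5*f/f;*Vav* group, a fall of 1.61 (SE 0.36, adjusted p = 0.0207). *Igf2*, the paternally expressed growth factor gene, was well above background on all 3 control arrays and not well above background on the 3 others, and was at least 1.40-fold lower (adjusted p = 0.0189). That bound sets the mean of the control arrays against, on each other array, the dimmest signal well above background or the probe's own, whichever was higher. *Igf2* entered the test through the control arrays alone, as *Ppbp* and *Col1a1* below did, and *Gzmb* through the other group alone, so that such a gene had to differ. Without *Igf2* the cluster had 12 tested genes, with 4 called lower, 2 higher and a median of -0.18. *Nap1l4* (0.54, adjusted p = 0.0269) and *Tssc4* (0.34, adjusted p = 0.0449) rose. *Cdkn1c* fell by 1.18, as given above, and replicate 3 of *Atg5*f/f;*Vav* was again the lowest for *H19*. On leaving out control replicate 1 or control replicate 2, limma called 0 of 12 tested genes, with 4 and 5 at an unadjusted p under 0.05, and without control replicate 3, 2 lower and 1 higher. Without replicate 1 of *Atg5*f/f;*Vav* it called 4 lower and 0 higher. The median of the cluster lay between -0.20 and -0.09 when any 1 array was left out.

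Of the genes next to *Cdkn2a* and *Cdkn2b* on chromosome 4, *Mtap*, a methionine salvage gene, and *Klhl9*, a ubiquitin ligase adaptor gene, were tested. *Mtap* differed by 0.25 (adjusted p = 0.12) and *Klhl9* by -0.15 (adjusted p = 0.345), so limma called 0 of 2, also at an unadjusted p under 0.05, while the t-test of the methods put 1 of 2 under that value. The neighbours *Dmrta1* and *Elavl2* had no tested probe.

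For each member measured on all 6 arrays, the genes with the most similar pattern were sought among 18316 genes by the smallest Euclidean distance of mean-centred log2 signals over the 6 arrays. For *Cdkn1a* they were *Itga2b* (distance 0.24), *Oas2* (0.25) and a non-coding transcript of chromosome 13 (0.28). *Itga2b* encodes a platelet integrin that early progenitors also carry, and *Oas2* is an interferon-induced gene. For *Cdkn1c* they were *1700012D01Rik* (0.13), *Ak1* (0.13), which encodes an adenylate kinase, and *5930403L14Rik* (0.14). For *Cdkn1b* they were *Crlf2* (0.05), *Zbtb24* (0.06) and *Lasp1* (0.06), for *Cdkn2c* they were *Ctse* (0.19), *Wfdc1* (0.20) and a transcript named only by its Ensembl identifier (0.21), and for *Cdkn2d* they were *Zc2hc1a* (0.05), *Plekha2* (0.08) and *Btbd11* (0.08). The 6 points of each pattern share the arrays and the genotype difference.

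The genes of the positive gate markers, *Kit* and *Ly6a*, were read together with *Cd34*, *Flt3*, *Cd48* and *Slamf1*, which divide LSK cells further and were not part of the gate. All 6 were well above background on every array. *Ly6a*, which encodes Sca-1 and is also interferon-inducible, was at 1.56, 1.31 and 1.53 on the control arrays and at 2.89, 2.91 and 3.30 on the others. It rose by 1.57 (SE 0.15, adjusted p = 0.00623) and was the only gene of the 6 called. *Kit* (-0.38, adjusted p = 0.0563) and *Flt3* (-0.87, adjusted p = 0.0675), both lower without overlap, did not pass the test, nor did *Cd34* (-0.27, adjusted p = 0.36), *Cd48* (0.31, adjusted p = 0.128) or *Slamf1* (0.41, adjusted p = 0.199). Of 9 tested lineage genes, 3 were called higher, *Ly6g* (0.71), *Ly6c1* (0.58) and *Ly6c2* (0.56), and 1 lower, *Ptprc* (-0.34), and *Cd8a* was not detected. The Ly6 genes are similar in sequence, and their probes may read the same RNA. When control replicate 1 or control replicate 2 was omitted, limma still called 1 of these 6 genes higher and called 0 of 9 lineage genes, with 3 at an unadjusted p under 0.05. When replicate 1 of *Atg5*f/f;*Vav* was omitted, 2 of the 6 were called lower. The lower call among lineage genes was lost without replicate 1 or 3 of *Atg5*f/f;*Vav*, and without control replicate 3 there were 2.

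Markers of other cell types moved between groups as well. The summed signal of 14 erythroid genes, in units of the array's 75th percentile, stood at 530, 502.5 and 240.5 in the control group and at 103.7, 143.1 and 174.2 in the other. Its brightest gene, *Hba-a1*, an alpha globin gene with a near-identical copy that its probe may also read, fell by 2.26, and *Slc4a1* (-2.29) and *Alas2* (-2.07), genes of late red cell precursors, fell with it. *Car1* (3.80), *Gata1* (3.0) and *Klf1* (2.95), genes of early erythroid progenitors, rose, and in all 7 were called higher and 4 lower. No marker of this list was undetected.

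Stromal markers had 9 tested genes, with 4 called lower and 0 higher, also 4 and 0 at an unadjusted p under 0.05, and 3 of 8 lower without *Col1a1*. The summed signal of all 14 stromal genes on the array, tested or not, stood at 10.8, 41.5 and 31.3 in the control group. In the other group it stood at 7.13, 9.95 and 9.90. The brightest was *Lepr*, and *Col3a1*, *Pdgfra*, *Col6a1* and *Kitl* were not detected on any array. *Col1a1* was at least 39.0-fold lower, *Col1a2* fell by 3.70 and *Postn* by 2.85, and *Col1a1* was at -4.14 on control array 1 against 3.23 and 2.95 on control arrays 2 and 3. The bound of *Col1a1* was 207-fold without control replicate 1, 16.1-fold without control replicate 2 and 17.8-fold without control replicate 3, and in each of these cases its probe was well above background on 2 arrays, too few for the test. Its call was also lost when any 1 array of *Atg5*f/f;*Vav* was left out, at adjusted p of 0.0778 to 0.0833. Without control replicate 1, 2 genes were called lower, without control replicate 2, 0 of 7 with 3 lower at an unadjusted p under 0.05, and without control replicate 3, 1. Without replicate 1, 2 or 3 of *Atg5*f/f;*Vav*, 2, 1 and 2 were called lower.

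Endothelial markers had 7 tested genes, with 2 called lower, *Kdr* (-1.42) and *Emcn* (-1.36), and 0 higher, also 0 at an unadjusted p under 0.05. The summed signal of all 8 endothelial genes on the array was 94.1, 111.1 and 109.9 against 102.8, 81.4 and 55.5, with *Egfl7* the brightest and *Cdh5* not detected. Of 13 neutrophil and myeloid progenitor genes, 3 were called higher, *Ctsg* (1.91), *Mpo* (1.0) and *Prtn3* (0.89), which are genes of early granule formation, and 7 lower, led by *Mmp8* (-1.61), *S100a8* (-1.38) and *Ltf* (-1.38), which are expressed late. Their summed signal was 241.2, 184.7 and 304.4 against 307.3, 247.2 and 300.4, with *Mpo* the brightest. Without replicate 1, 2 or 3 of *Atg5*f/f;*Vav*, 1, 2 and 1 neutrophil genes were called higher and 6, 2 and 4 lower, and without control replicate 3, 4 higher and 3 lower. Without replicate 1 or 3 of *Atg5*f/f;*Vav*, 4 endothelial genes were called lower in each case, and without control replicate 3, 1. In the erythroid, endothelial and neutrophil lists limma called 0 genes without control replicate 1 or control replicate 2, with 25 and 25 of 34 at an unadjusted p under 0.05.

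Among the remaining lists, *Gzmb*, a cytotoxic granule gene, was at least 11.7-fold higher in the samples labelled *Atg5*f/f;*Vav*, and was the only 1 of 7 tested T and NK cell genes called, with *Nkg7* the brightest and *Cd3g* and *Ncr1* not detected. When any 1 array of *Atg5*f/f;*Vav* was left out, *Gzmb* was well above background on 2 arrays, too few for the test, with bounds of 10.1-fold to 12.8-fold. The only T and NK cell genes then called, named for that reason, were *Cd3d* without replicate 1 (at least 1.55-fold lower, adjusted p = 0.0337) and *Klrb1c* without replicate 2 (at least 1.47-fold lower, adjusted p = 0.0411). Neither was well above background on the remaining arrays of *Atg5*f/f;*Vav*. Both entered these tests through the control arrays alone, so that they had to differ, and nothing is drawn from these calls. Without replicate 3, 0 of 6 were called. Without control replicate 3, *Nkg7* (0.94, adjusted p = 0.027) was called higher beside *Gzmb*. Of 10 megakaryocyte genes, *Gp5* (2.08) and *Itga2b* (1.17) rose, and *Ppbp* (at least 1.22-fold lower), *Vwf* (-0.70) and *Gp9* (-0.63) fell, with another probe of *Vwf* at 0.53. Of 8 mast cell, basophil and eosinophil genes, *Ms4a2* rose by 2.96 and *Prss34* fell by 1.25, and of 7 monocyte and macrophage genes, *Mpeg1* rose by 1.77 and *Vcam1* fell by 1.42. Of 8 B cell genes, *Cd79a* alone was called (0.95), and in the control group 1 of 3 arrays showed it well above background. When control replicate 1 or control replicate 2 was omitted, 1 gene each was called in the T and NK cell, mast cell and macrophage lists, 0 of 9 in the megakaryocyte list (5 and 4 at an unadjusted p under 0.05) and 0 of 8 in the B cell list (2 and 1). Without control replicate 3, 0 megakaryocyte genes were called lower, with 2 at an unadjusted p under 0.05, and 2 mast cell genes were called higher. Signal was summed over all genes of a list on the array, tested or not. The sum was 5.38, 8.32 and 7.49 against 9.51, 8.94 and 10.1 for the macrophage list and 9.89, 8.91 and 8.65 against 8.14, 8.0 and 7.85 for the megakaryocyte list, and the groups overlapped in the other 3. The part of any of these cell types in the values of the CDK inhibitors was not tested.

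**Figure D4:**
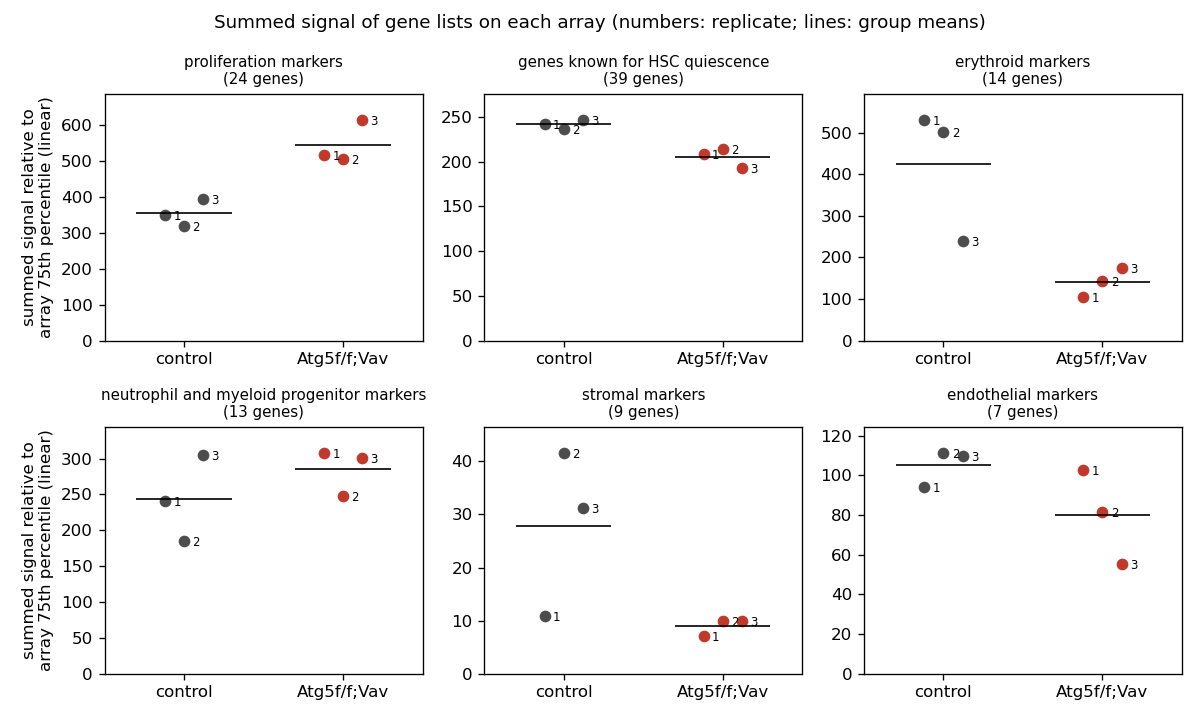
Summed signal of 6 gene lists on each array (y axis, linear, in units of the array's 75th percentile, starting at 0), for the 3 control arrays (grey) and the 3 arrays labelled *Atg5*f/f;*Vav* (red), with replicate numbers and group means as lines. Proliferation markers summed to between 318.1 and 393.3 on the control arrays and to between 504.5 and 611.5 on the others, and genes known for HSC quiescence to between 236.6 and 246 against 193 to 214.1. The numbers in the panel titles count tested genes, whereas each sum runs over all genes of the list on the array. These are 14 for stromal, 8 for endothelial and 40 for quiescence genes.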

How the data were processed

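LSK cells of both genotypes, 3 samples each, were profiled on 1-colour Agilent arrays with probes designed on mm9. The authors deposited 1 intensity per spot, corrected for background by Feature Extraction 12.0.3.1 and not scaled between arrays, and a table of normalised signal, which is the intensity divided by a 75th percentile that, unlike the one used below, includes control spots.

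From the intensity, the log2 value minus each array's 75th percentile over 59305 non-control spots was computed. Outlier-flagged spots were dropped and spots of a probe averaged. Background floors scale with that percentile, at 656.8, 651.7 and 746.2 for control and 881.4, 698.4 and 620.3 for *Atg5*f/f;*Vav*. Precision is limited by how many arrays there were. A probe entered the test, by limma 3.58.1 in R 4.3.3 (lmFit, eBayes), if 3 or more of 6 arrays showed it well above background, with Benjamini-Hochberg adjustment over 32074 probes and a threshold of 0.05. A gene was represented by its tested probe with the highest mean signal. Gene names are those in the scanner files, and of 316 listed genes 313 were found on the array by symbol, 2 by a RefSeq synonym and 1 not.

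The members and lists were chosen with earlier results of these data known. Named were all members, *Atg5*, at most 3 genes called each way per list by size of change, lists of at most 6 genes in full, the brightest and undetected markers, and the 3 genes nearest to each member. Alternatives were normexp correction (offset 50), quantile normalisation, a percentile over detected probes, the deposited signal, no filter or a filter on 6 arrays, outlier spots kept, an intensity trend, the methods' t-test, a replicate block, each array left out, and the mean of a gene's probes. The fit was tested on simulated data. A slide block could not be fitted because the arrays shared 1 slide. Flow cytometry was not analysed here.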

Additional observations from a re-analysis of the deposited data

How the results depend on the processing

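The direction of the change of *Cdkn1a*, *Cdkn1b*, *Cdkn1c*, *Cdkn2c* and *Cdkn2d* was the same under every alternative run. Without a filter on dim probes, 4538 of 56605 probes and 1 of 5 members were called in place of 11024 and 2, and the change of *Cdkn1c* (-1.18, adjusted p = 0.0755) was no longer called, with more probes in the adjustment. The methods' t-test called 0 probes after adjustment (13541 at an unadjusted p under 0.05, smallest adjusted p 0.0506) and 0 of 5 members, with adjusted p of 0.0633 for *Cdkn1a* (1.14) and 0.112 for *Cdkn1c* (-1.18). *Cdkn1b* was called lower with the percentile over detected probes (-0.49) and with the mean of its probes (-0.58). The first is the shift of all genes, since relative to their median *Cdkn1b* was at -0.26 under that scaling and the main one. After quantile normalisation *Cdkn1b* was at -0.46, or -0.44 relative to that median. With the second *Cdkn2c* probe, tried after seeing the data as the second *Cdkn1b* probe was in the pairs, *Cdkn1b* minus *Cdkn2c* turned from -0.02 to 0.10. Leaving out each array gave 148 to 10426 probes, 0 to 2 members, 0.92 to 1.37 for *Cdkn1a*, -0.39 to -0.18 for *Cdkn1b*, -1.39 to -0.77 for *Cdkn1c*, -0.47 to -0.13 for *Cdkn2c* and -0.32 to -0.06 for *Cdkn2d*.

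The replicate numbers were not taken to pair the samples. The correlations of deviations were -0.07, 0.19 and 0.11 for equal numbers and lay between -0.30 and 0.13 for unequal ones. With 3 arrays in each group, these values cannot decide whether the samples were paired. With the replicate block, 10173 probes and 2 of 5 members were called, and *Cdkn1a* (1.14, adjusted p = 0.0299) and *Cdkn1c* (-1.18, adjusted p = 0.0401) were both among them. The block changed no call of a member.

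Over the 22 lists other than the members, 80 genes were called higher and 53 lower, with lists that share genes counted each time. These counts were 40 and 16 without a filter on dim probes, 59 and 73 with the percentile over detected probes and 0 and 0 by the t-test of the methods. With the percentile over detected probes the median of all genes moved from -0.03 to -0.24, and the list medians moved down with it. After quantile normalisation, where it stayed at -0.02, medians moved from 0.70 to 0.44 for proliferation markers, 0.45 to 0.30 for ubiquitin ligases and kinases, 0.31 to 0.17 for DREAM and MuvB genes and -0.09 to -0.24 for transcriptional regulators. With normexp the median of the imprinted cluster moved from -0.22 to -0.09. Across background corrections and scalings, the median of p53 targets lay between -0.20 and 0.09, and without control replicate 3 it was 0.16. Signal near background limits *Cdkn2a*, *Cdkn2b* and the other *Cdkn1a* probes.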
